A study of Mus musculus with 16 samples.

Results

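The genes described here are 8 immediate early genes, Fos, Fosb, Jun, Junb, Egr1, Atf3, Ier2 and Klf6, and 2 inducible heat shock genes, Hspa1a and Hspa1b. They were chosen by name, 10 of 47729 genes in the count table, and all 10 were among the 20076 genes that passed the filter on low counts. RNA came from fetal mouse testes (strain C57/Bl6/129svJ, as the labels write it) that carry an Oct4-GFP reporter. Germ cells express this reporter and were sorted away, leaving viable GFP-negative somatic cells. There were 4 groups of 4 libraries: Inhba wild type (WT) and Inhba knockout (KO) at embryonic day E13.5, and the same genotypes at E15.5. Inhba encodes the beta A subunit of activin A, a secreted TGF-beta family factor. The labels say that it was knocked out and do not give the allele, and control and knockout animals alike carry the reporter. The mesonephros was removed and the gonads were dissociated to single cells for the sort, so no library came from undissociated tissue. Replicates are taken as separate animals. The design text counts 3 to 4 animals per age and genotype, against 4 libraries in each group. If libraries of one group came from the same animal, the p-values are smaller than they should be.

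Immediate early genes are transcribed within minutes of a signal, without new protein synthesis, when kinases activate factors already bound at their promoters. Fos, Fosb, Jun and Junb encode subunits of the dimeric AP-1 transcription factor, while Egr1, Atf3 and Klf6 encode other DNA-binding factors. Hspa1a and Hspa1b encode the inducible HSP70 chaperone, which heat shock factor 1 switches on when proteins unfold. Both sets are known to rise during enzymatic dissociation and handling of tissue as well as in response to growth factors.

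RefSeq promoter windows (GRCm38.p6) were found for 8 of the 10 genes, all but Egr1 and Ier2. Those of Hspa1a and Hspa1b are shown because they are nearly identical. Those of Fos and Jun are shown because these were the AP-1 genes with the most reads. Each is the 250 bases before the annotated start, 5′ to 3′ on the gene's own strand. Capitals mark GAANNTTC, the paired core of a heat shock element, in Hspa1a, Hspa1b and Jun. In Fos they mark TATAAA and TGACG, the core of a cyclic AMP response element.
Hspa1a: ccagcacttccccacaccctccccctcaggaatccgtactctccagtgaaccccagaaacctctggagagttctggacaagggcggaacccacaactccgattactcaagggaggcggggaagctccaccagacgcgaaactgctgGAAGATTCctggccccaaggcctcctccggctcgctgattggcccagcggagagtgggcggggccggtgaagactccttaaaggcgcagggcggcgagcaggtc
Hspa1b: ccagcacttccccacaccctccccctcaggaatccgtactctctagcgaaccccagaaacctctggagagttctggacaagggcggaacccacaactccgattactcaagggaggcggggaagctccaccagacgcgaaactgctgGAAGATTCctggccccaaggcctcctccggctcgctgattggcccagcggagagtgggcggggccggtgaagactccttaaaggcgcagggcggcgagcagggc
Fos: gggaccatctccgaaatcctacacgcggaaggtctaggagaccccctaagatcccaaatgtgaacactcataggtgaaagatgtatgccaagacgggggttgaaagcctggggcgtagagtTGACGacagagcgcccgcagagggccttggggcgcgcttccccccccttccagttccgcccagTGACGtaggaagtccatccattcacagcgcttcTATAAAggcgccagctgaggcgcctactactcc
Jun: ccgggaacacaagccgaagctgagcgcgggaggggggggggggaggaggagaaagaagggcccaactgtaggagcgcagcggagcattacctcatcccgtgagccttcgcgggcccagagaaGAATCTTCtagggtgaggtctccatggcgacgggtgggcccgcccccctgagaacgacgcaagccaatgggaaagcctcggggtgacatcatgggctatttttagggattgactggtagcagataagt
These windows lie at chr17:34972157-34972406 (minus strand), chr17:34959239-34959488 (minus), chr12:85473640-85473889 (plus) and chr4:95052223-95052472 (minus).

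Hspa1a and Hspa1b had the same base at 247 of these 250 positions. GAANNTTC began 104 bases before the start in both, and 128 bases before it in Jun. It was present in 3 of the 8 windows when 50 bases after the start were included, against 7.86% of all 32851 windows of that kind, and it reads the same on both strands. TGACG on either strand was in 4 of 8 (Fos, Fosb, Junb and Atf3) against 20.8%, and TATAAA on either strand in 2 of 8 (Fos and Junb) against 13.6%. TGACGTCA, TGANTCA (the AP-1 site), a heat shock element of 3 repeats and the CArG box were in none of the 8, against 1.79%, 7.81%, 0.603% and 1.63%. Bases farther from the start, and the promoters of Egr1 and Ier2, were not searched, so sites there would be missed. In the GENCODE transcripts, 47.1% of the 100-base windows of Hspa1a (2967 bases) and 49.9% of those of Hspa1b (2803 bases) occur in the other gene. How reads from such stretches were assigned is not given in the sources used here, so the split between the 2 genes is uncertain and their sum is given where it matters.

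Library totals ran from 6131592 to 23324810 counts, and the lowest count of any of the 10 genes in any library was 51. KO E13.5 replicate 1 stands apart: 6 germ cell markers summed to 3598 counts per 1000000 (CPM) there against 2.9 to 24.9 in the other 15 libraries, and its Sertoli markers summed to 283 CPM against 530 or more. Markers of Sertoli, stromal, Leydig, endothelial and macrophage cells were detected in every library, and so were 7 of 7 erythroid markers. Results that rest on KO E13.5 replicate 1 are given with and without it, apart from the spread of the list genes.

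For each of the 10 genes most of the variance lay within the 4 groups (69.5% or more), as it did for the median gene tested (68.6%). In WT E13.5 all 10 genes were highest in replicate 4, and in WT E15.5 all 10 were highest in replicate 3. In KO E13.5, 6 were highest in replicate 4 and the other 4 (Junb, Egr1, Hspa1a and Hspa1b) in replicate 2, while all 10 were lowest in replicate 1. For comparison, WT E13.5 replicate 4 was highest of its group for 26.5% of all genes tested, and WT E15.5 replicate 3 for 31.7%. KO E13.5 replicate 1 was lowest of its group for 40.2%. The 3 libraries WT E13.5 replicate 4, KO E13.5 replicate 4 and WT E15.5 replicate 3 carry the title numbers 927, 928 and 941, which the labels do not explain.

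**Figure D1:**
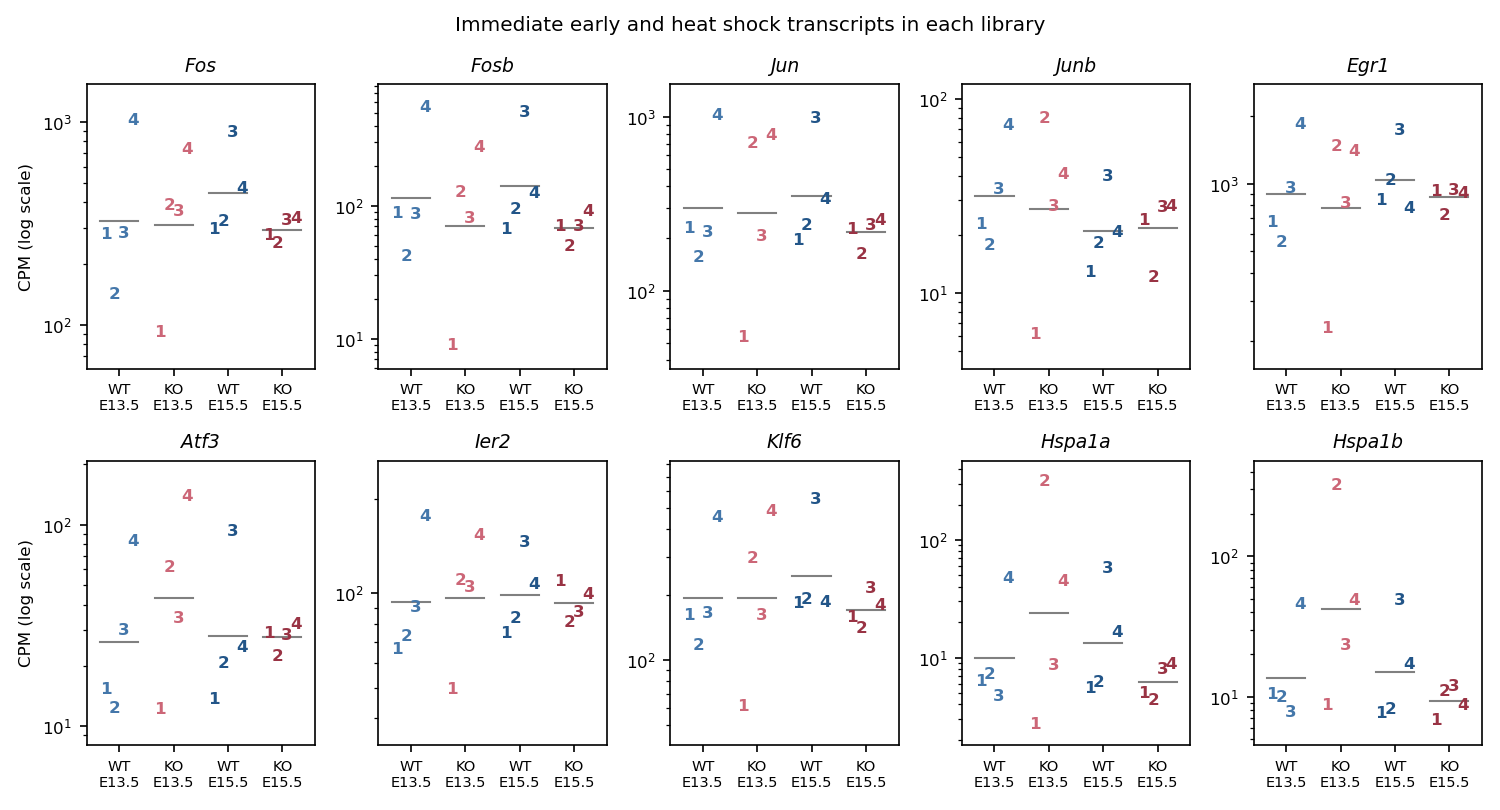
CPM of each of the 10 genes (log scale, a separate range for each gene) by group. Digits are replicate numbers, 1 point per library, and grey bars are geometric means of 4 libraries. WT E13.5 replicate 4 and WT E15.5 replicate 3 are the top points of their groups for all 10 genes, and the KO E15.5 libraries lie closest together.

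Among the AP-1 genes, Fos (chromosome 12, 85473890 to 85477273, GRCm38) stood at 279, 140, 283 and 1018 CPM in WT E13.5 replicates 1 to 4 and at 91.1, 389, 363 and 731 in KO E13.5. At E15.5 it stood at 295, 324, 890 and 471 CPM in WT and at 274, 252, 324 and 334 in KO. One library per group held the high value in 3 of the groups, and WT and KO overlapped at both ages. In WT E13.5, replicate 4 was 3.6-fold above the next library, while in KO E15.5 the highest was 1.33-fold above the lowest.

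Fosb (chromosome 7, 19302696 to 19310051), the AP-1 subunit of the Fos family that also gives rise to a long-lived shorter protein, moved over a wider range than Fos. Its values were 88.0, 41.9, 85.5 and 545 CPM in WT E13.5 and 8.98, 125, 80.5 and 272 in KO E13.5. At E15.5 they were 67.0, 93.4, 508 and 124 CPM in WT and 69.8, 49.5, 69.4 and 91.2 in KO. The same libraries were high as for Fos, with larger gaps. The ratio of Fosb to Fos counts was 0.536 and 0.570 in WT E13.5 replicate 4 and WT E15.5 replicate 3, 0.373 in KO E13.5 replicate 4, 0.0985 in KO E13.5 replicate 1 and 0.196 to 0.323 in the other 12.

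Jun (chromosome 4, 95049034 to 95052222), the main AP-1 partner of Fos, was at 229, 156, 216 and 1021 CPM in WT E13.5 and at 53.7, 700, 204 and 785 in KO E13.5. At E15.5 it was at 195, 237, 979 and 335 CPM in WT and 226, 161, 239 and 254 in KO. Unlike Fos, Jun was nearly as high in KO E13.5 replicate 2 as in replicate 4. Its exons overlap the antisense gene Junos, and the counts carry no strand. Junb (chromosome 8, 84974484 to 84978718), an AP-1 subunit with weaker activity than Jun on many promoters, was highest in KO E13.5 replicate 2, at 79.1 CPM, and in WT E13.5 replicate 4, at 72.8. Its exons overlap Prdx2 on the other strand. In KO E13.5 replicate 1 it fell to 6.13 CPM, the lowest of the 16, and in KO E15.5 it ranged from 12 to 28.0.

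Egr1 (chromosome 18, 34859823 to 34864984), a zinc finger factor induced by growth factor signalling, had the highest level of the 10 per length and a narrower range. It was at 673, 548, 947 and 1837 CPM in WT E13.5 and 226, 1460, 815 and 1392 in KO E13.5. At E15.5 it was at 842, 1032, 1726 and 778 CPM in WT and 926, 724, 934 and 905 in KO. Atf3 (chromosome 1, 191170296 to 191218039), a stress-induced factor of the ATF/CREB family, ran from 12.1 to 138 CPM, with the top values of 138, 92.7 and 82.4 in KO E13.5 replicate 4, WT E15.5 replicate 3 and WT E13.5 replicate 4. Klf6 (chromosome 13, 5861482 to 5870394), a Krüppel-like factor, reached 551, 482 and 456 CPM in WT E15.5 replicate 3, KO E13.5 replicate 4 and WT E13.5 replicate 4, and lay between 60.9 and 292 in the other 13. Ier2 (chromosome 8, 84661331 to 84662852), a short nuclear protein gene, moved least, from 49.2 to 177 CPM, with the same library lowest and WT E13.5 replicate 4 highest.

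The heat shock genes had the single most extreme library. Hspa1a (chromosome 17, 34969190 to 34972156) was at 6.27, 7.22, 4.67 and 47.3 CPM in WT E13.5 and at 2.71, 313, 8.49 and 44.7 in KO E13.5. At E15.5 it was at 5.45, 6.20, 56.7 and 16.5 CPM in WT and 4.97, 4.28, 7.98 and 8.73 in KO. KO E13.5 replicate 2 was 7.0-fold above the next library of its group and 116-fold above replicate 1. Hspa1b (chromosome 17, 34956436 to 34959238) was high in the same 4 libraries, with 10.4, 9.82, 7.67 and 45.1 CPM in WT E13.5 and 8.69, 318, 23.1 and 48.4 in KO E13.5. At E15.5 it was at 7.64, 8.05, 48.4 and 16.8 CPM in WT and 6.80, 10.8, 11.8 and 8.64 in KO. The sum of both genes was 631 CPM in KO E13.5 replicate 2, 92.4, 93.1 and 105 in WT E13.5 replicate 4, KO E13.5 replicate 4 and WT E15.5 replicate 3, and 11.4 to 33.3 in the other 12. The ratio of Hspa1a to Hspa1b counts lay between 0.924 and 1.17 in those 4 libraries and between 0.311 and 1.01 in the other 12. Exons of Hspa1a also overlap Gm20481 on the other strand.

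KO E13.5 replicate 2 separated the heat shock genes from the immediate early genes. Relative to its group mean, its mean log2 CPM was higher by 3.31 for Hspa1a and Hspa1b and by 0.78 for the 8 immediate early genes. In KO E13.5 replicate 4 the order was the other way, with 0.55 and 1.22. The corresponding values were 1.97 and 1.47 in WT E13.5 replicate 4, 1.88 and 1.18 in WT E15.5 replicate 3, and -2.68 and -1.94 in KO E13.5 replicate 1. The 10 genes together took 0.0471% of counts in KO E13.5 replicate 1 and 0.511% in WT E13.5 replicate 4.

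**Figure D2:**
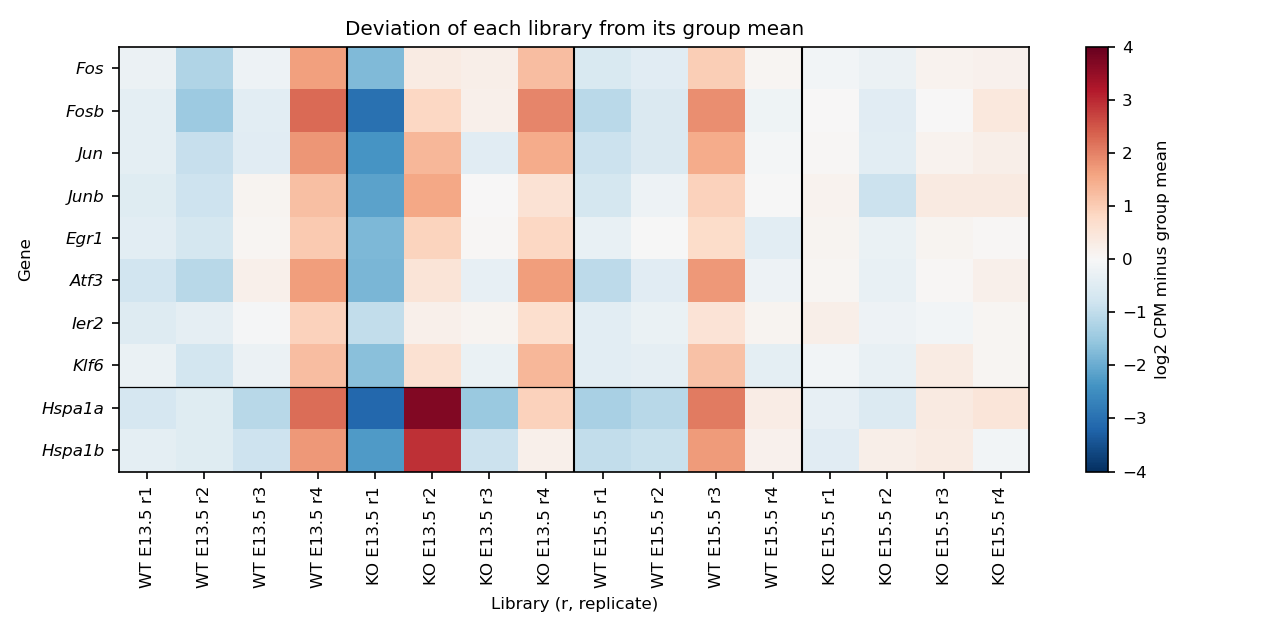
Heat map of log2 CPM minus the mean of the group, for 10 genes (rows) in 16 libraries (columns, r for replicate). Vertical lines separate groups, and the horizontal line separates immediate early from heat shock genes. The dark red cells are Hspa1a and Hspa1b in KO E13.5 replicate 2, and the blue column is KO E13.5 replicate 1.

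Per exon length, the median level over the 16 libraries followed the order Egr1 (204 RPKM, reads per kilobase and per 1000000 counts), Fos (138), Jun (73.1), Ier2 (62.1), Klf6 (41.1), Fosb (13.9), Atf3 (13.3), Junb (11.1), Hspa1b (3.79) and Hspa1a (2.56). Egr1 and Fos stood above 99.6% and 99.2% of the 20006 genes with a length, and Hspa1a above 44.0%. The ranges over libraries overlapped between every pair of neighbours in this order (Egr1 50.5 to 410 RPKM, Fos 38.7 to 433). These ranges do not compare genes within a library, and whether the order held within each library was not tested. In the highest library, Hspa1b reached 113 RPKM and Hspa1a 105, above the median levels of Jun and Ier2.

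The spread within groups was wide for most of these genes. The pooled SD of log2 CPM within groups (12 residual degrees of freedom) was 1.85 for Hspa1a, 1.47 for Fosb, 1.39 for Hspa1b, 1.21 for Jun, 1.14 for Atf3, 1.00 for Junb, 0.95 for Fos, 0.87 for Klf6, 0.78 for Egr1 and 0.53 for Ier2. The median was 0.26 over the 10224 genes with a mean of at least 10 CPM. Among those genes Hspa1a ranked 24, Fosb 43, Hspa1b 49 and Jun 57 from the top, and 9 of the 10 exceeded the 95th percentile of 0.60, with Ier2 below it. Over all 20076 genes tested, which include genes of low counts, the median was 0.40 and 7 of the 10 exceeded the 95th percentile, with Klf6, Egr1 and Ier2 below it. Without KO E13.5 replicate 1, all 10 exceeded the 95th percentile of those 15 libraries, 0.37. Between 69.5% (Hspa1b) and 99.4% (Ier2) of the variance of each gene lay within groups, against a median of 68.6% over all genes tested.

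**Figure D3:**
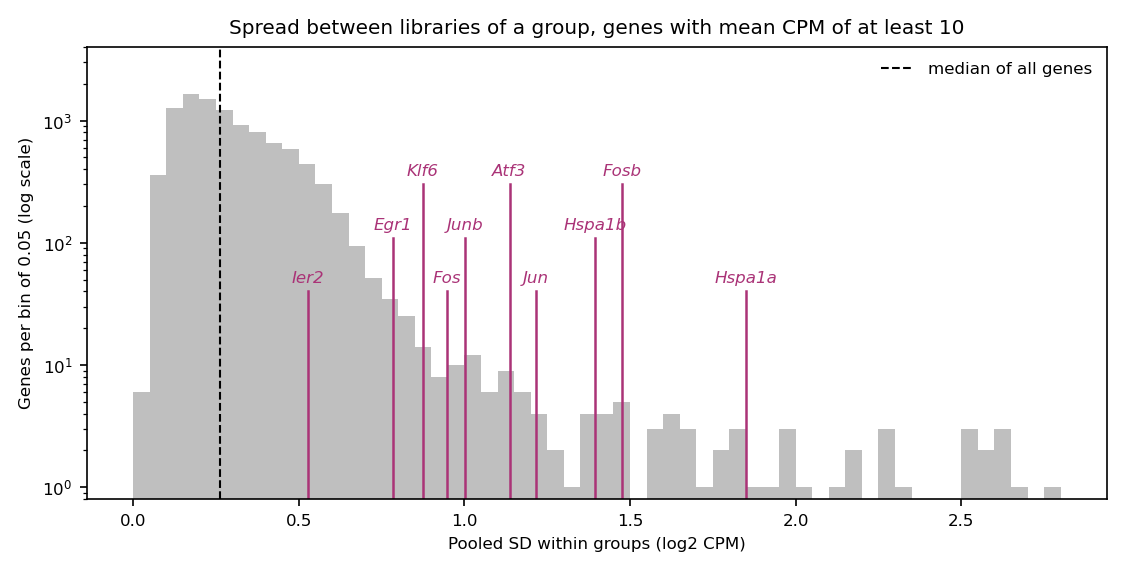
Histogram of the pooled within-group SD of log2 CPM over 10224 genes with a mean of at least 10 CPM (gene numbers on a log scale, bins of 0.05). Purple lines mark the 10 genes, at heights chosen for legibility, and the dashed line is the median of 0.26. Ier2 is the member nearest the bulk of genes, and Hspa1a at 1.85 is the farthest.

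This spread was not the same in each group. The highest library exceeded the lowest by a median of 12.1-fold over the 10 genes in KO E13.5, 6.23-fold in WT E13.5, 4.07-fold in WT E15.5 and 1.55-fold in KO E15.5. The same ratio for genes with a mean of at least 10 CPM had medians of 1.92, 1.2, 1.25 and 1.25. KO E15.5 was the tight group, from 1.29-fold for Egr1 to 2.33-fold for Junb. There, 2 of the 10 genes exceeded the group's own 95th percentile of SD, against 9 or 10 in the others. Whether the spread differs between groups was not tested.

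Genes of the set moved together from library to library. Over deviations from the group means in 16 libraries, Pearson's r lay between 0.86 and 0.98 for the 28 pairs of immediate early genes, given as a description, and between 0.76 and 0.98 without KO E13.5 replicate 1. It lay between 0.70 and 0.91 for the 16 pairs of an immediate early with a heat shock gene (0.55 to 0.87 without that library). The points share libraries and their depth. Jun with Hspa1a was the closest such pair (0.91, and 0.87 without that library).

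The non-member genes most like the mean of the 8 immediate early genes, of 12550 with a mean of at least 2 CPM, were Rhob (r = 0.98 over 16 libraries), Btg2 (0.97), Dnajb4, Klf4, Spty2d1 and Btg1 (0.96 each), Dusp1 and Thbs1 (0.95 each). Rhob encodes a small GTPase, Btg2 and Btg1 antiproliferative proteins, Dusp1 a phosphatase of MAP kinases and Thbs1 a matrix glycoprotein. In the 15 libraries without KO E13.5 replicate 1 their r was between 0.92 and 0.97. Rhob reached 329, 259 and 258 CPM as the maxima of WT E13.5, KO E13.5 and WT E15.5, in replicates 4, 2 and 3, against 113 in KO E15.5. Most like Hspa1a and Hspa1b were AW011738 (0.94), Herpud1 (0.93), Decr2 (0.92), Cd300a and Rbm15b (0.91 each). Herpud1, a gene of endoplasmic reticulum stress, had maxima of 44.7, 44.6 and 38.9 CPM in WT E13.5 replicate 4, KO E13.5 replicate 2 and WT E15.5 replicate 3. Without KO E13.5 replicate 1 the chaperone gene Hsph1 led that order (0.93).

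Markers of red blood cells peaked in the same libraries as the immediate early genes. In each of the 4 groups the library with the highest mean of the 8 immediate early genes also had the highest sum of the 7 erythroid markers. For the mean of Hspa1a and Hspa1b this held in both WT groups and in neither KO group. Their highest KO libraries, E13.5 replicate 2 and E15.5 replicate 3, had erythroid sums of 2871 and 180 CPM. The erythroid sum was 12960 CPM in WT E13.5 replicate 4, while the remaining WT E13.5 libraries had 2036 to 2508. In KO E13.5 the erythroid sum was 711, 2871, 8328 and 10007 CPM in replicates 1 to 4. At E15.5 the top sums were 1872 in WT replicate 3, where the others had 71.8 to 568, and 1106 in KO replicate 4, where the others had 97.6 to 187. KO E13.5 replicate 3 had 8328 CPM of erythroid markers with Fos at 363 CPM, inside the range of its group. WT E15.5 replicate 3 also had the most Leydig marker RNA of its group (3029 CPM over 5 markers, the others 1017 to 1174) and the most macrophage marker RNA (107 CPM over 6 markers, the others 53.0 to 74.9). The part of these cells in the results was not tested, and fewer cells of a type and less RNA per cell cannot be told apart in bulk RNA. Mitochondrial transcripts took 6.75% to 10.6% of counts and were 9.45%, 9.90% and 8.98% in the 3 libraries with title numbers 927, 928 and 941.

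**Figure D4:**
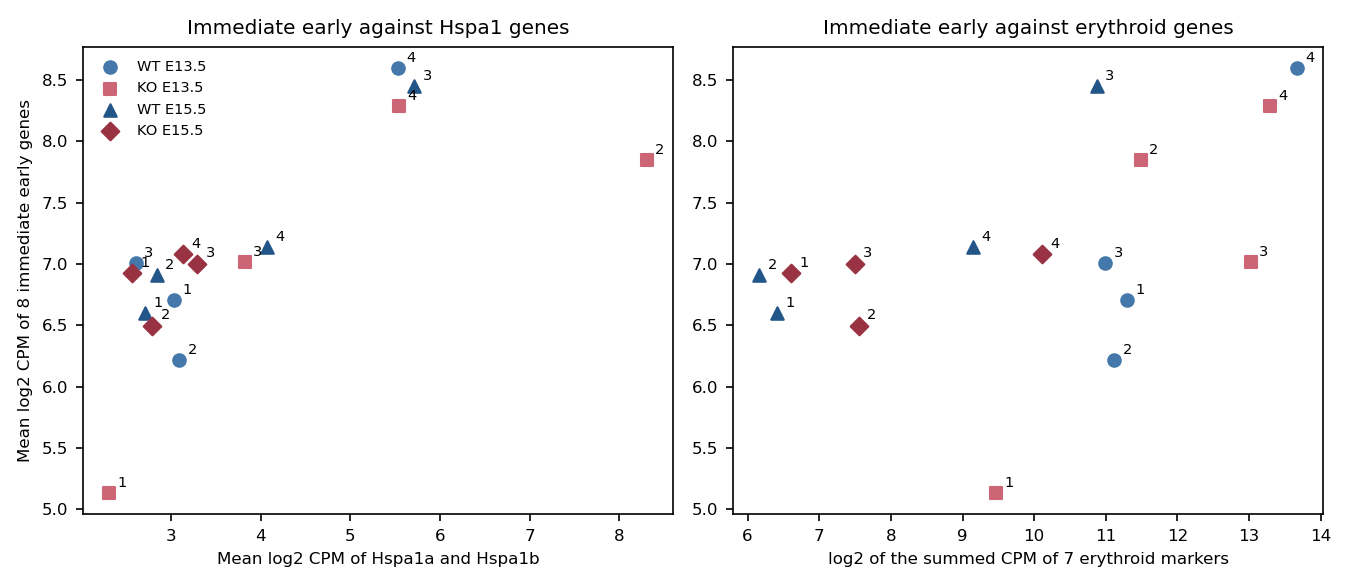
Mean log2 CPM of the 8 immediate early genes in each library against the mean of Hspa1a and Hspa1b (left) and against log2 of the summed CPM of 7 erythroid markers (right). Symbols are groups and digits are replicates. KO E13.5 replicate 2 is the point at the far right of the left panel, and KO E13.5 replicate 1 is the lowest point in both.

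At E13.5 the first question of the design is whether loss of Inhba changed these genes, and no change was detectable over this spread. None of the 10 was called by edgeR's quasi-likelihood test (adjusted p under 0.05), where 0.00498% of genes tested were called in this comparison, and 2 had an unadjusted p under 0.05, as did 14.8% of genes tested. DESeq2 and limma-voom also called none. Under limma-voom all 10 log2 fold changes were positive (median 0.69), against 7 with edgeR (median 0.09). Limma-voom gave 3 of the 10 an unadjusted p under 0.05, and its share of genes tested at that p was not computed. Hspa1b had a log2 fold change of 2.45 ± 0.92 (SE, 4 against 4 libraries, 95% interval 0.50 to 4.40, edgeR adjusted p = 0.268) and Hspa1a 2.5 ± 1.15 (0.06 to 4.95, adjusted p = 0.33). With KO E13.5 replicate 2 left out these values were 0.55 and 0.21. Without WT E13.5 replicate 4 they were 3.42 and 3.93. Group means were 99.5 ± 146 CPM (SD, n = 4) in KO and 18.3 ± 18.0 in WT for Hspa1b.

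The immediate early genes at E13.5 lay on both sides of 0, from -0.64 ± 0.86 for Fosb to 0.82 ± 0.71 for Atf3, with 5 of 8 positive. Fos was at -0.13 ± 0.57 (95% interval -1.34 to 1.08), Jun at 0.10 ± 0.72, Junb at 0.07 ± 0.58, Egr1 at -0.04 ± 0.45, Ier2 at 0.04 ± 0.33 and Klf6 at 0.15 ± 0.54. The 95% intervals of these 8 genes reached as low as -2.47 (Fosb) and as high as 2.32 (Atf3), and all included 0. The median of the 10 was 0.09, beside 0.02 over all genes tested. It was 0.46 without KO E13.5 replicate 1, with 9 of 10 positive, 0.76 without WT E13.5 replicate 4, with all 10 positive, and -0.24 without KO E13.5 replicate 4, with 4 positive.

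At E15.5 9 of the 10 genes had lower fitted values in KO and none was called, where 0.149% of genes tested were called. None had an unadjusted p under 0.05, and DESeq2 and limma-voom called none. In a fit of these 2 groups alone, 4 of the 10 (Fos, Fosb, Jun and Hspa1a) had an unadjusted p under 0.05 and none was called. That fit called 0.89% of genes tested, and its share of genes at an unadjusted p under 0.05 was not computed. Fosb was at -1.5 ± 0.88 (95% interval -3.36 to 0.36), Hspa1a at -1.69 ± 1.15, Hspa1b at -1.09 ± 0.90, Jun at -0.99 ± 0.73, Fos at -0.74 ± 0.57 and Klf6 at -0.69 ± 0.54, with edgeR adjusted p of 1.0 for each. Atf3 was at -0.44 ± 0.71, Egr1 at -0.33 ± 0.45, Ier2 at -0.12 ± 0.33 and Junb at 0.01 ± 0.58. The median was -0.71, beside -0.00 over all genes tested, and it was -0.15 without WT E15.5 replicate 3. Without that library Fosb was at -0.44, Hspa1a at -0.52, Jun at -0.22 and Atf3 at 0.51. WT and KO libraries overlapped for all 10 genes at both ages, where 6.09% and 7.43% of genes tested did not overlap at E13.5 and E15.5.

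**Figure D5:**
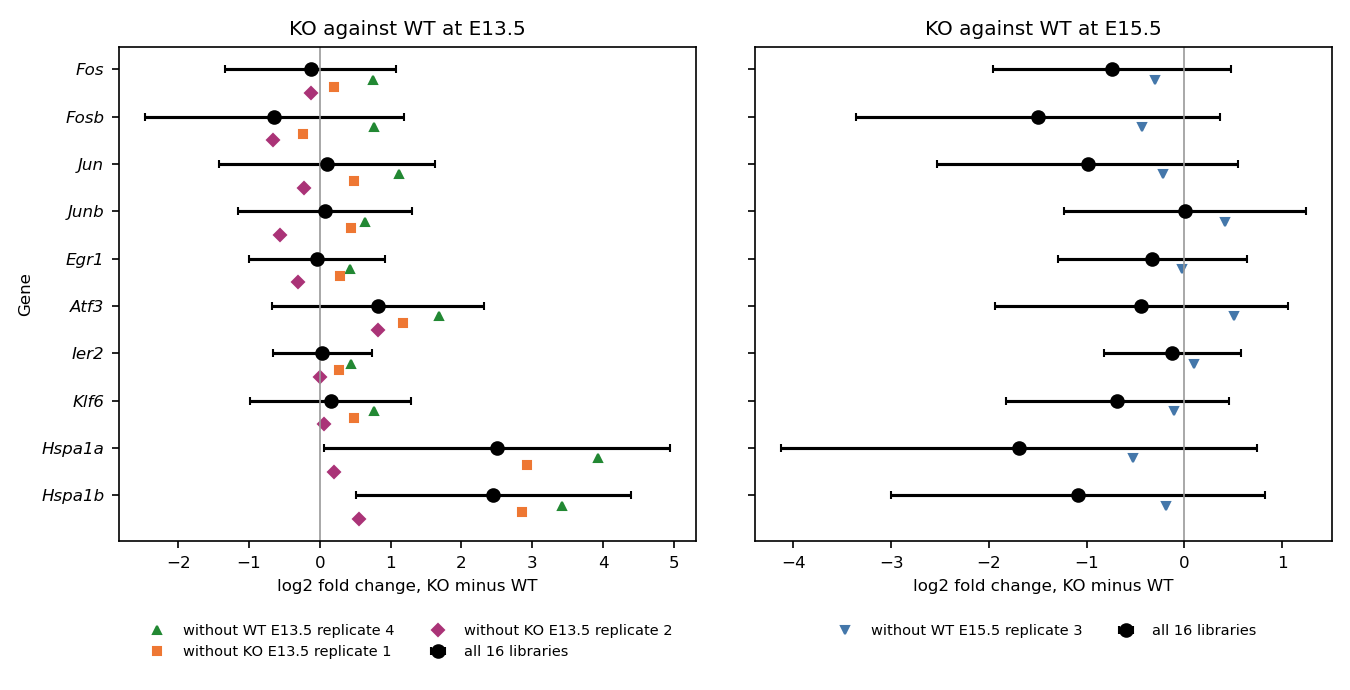
Log2 fold change of KO against WT at E13.5 (left) and E15.5 (right) for the 10 genes. Black points and bars are edgeR values and 95% intervals with 16 libraries, and coloured symbols are the values without the single library named in the key. At E13.5 Hspa1a and Hspa1b move to 0.21 and 0.55 without KO E13.5 replicate 2, and at E15.5 Fosb moves from -1.5 to -0.44 without WT E15.5 replicate 3.

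The difference between the KO effects at the 2 ages was negative for all 10 genes, with a median of -0.85, and none was called, where 0.0199% of genes tested were. An unadjusted p under 0.05 was found for 2, and for 6.34% of genes tested, and DESeq2 and limma-voom called none. Hspa1a had -4.20 ± 1.62 and Hspa1b -3.54 ± 1.28 (edgeR adjusted p = 0.716 for both). These were -1.90 and -1.64 with KO E13.5 replicate 2 left out. The median of the 10 was -0.21 without WT E15.5 replicate 3, with 4 positive. Without KO E13.5 replicate 4 it was also -0.21, with 1 positive. It was -1.21 without KO E13.5 replicate 1 and -1.80 without WT E13.5 replicate 4, with 0 positive in each.

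Between E13.5 and E15.5, WT libraries showed no called member, where 6.79% of genes tested were called, none had an unadjusted p under 0.05, and DESeq2 and limma-voom called none. The median of the 10 was 0.12 with 9 positive, -0.71 with none positive without WT E15.5 replicate 3, and 1.03 without WT E13.5 replicate 4. In KO, Hspa1b fell by 3.39 ± 0.96 on the log2 scale (10.5-fold, edgeR adjusted p = 0.0293), from 99.5 ± 146 CPM (SD, n = 4) to 9.51 ± 2.24. Hspa1a fell by 3.82 ± 1.23 (14.2-fold, adjusted p = 0.0464), from 92.2 ± 148 to 6.49 ± 2.20 CPM. They were the 2 of the 10 genes called in a comparison where 15.4% of genes tested were called. Genes called lower made up 7.85% of genes tested. The ages overlapped in both genes. KO E13.5 replicate 1 lay within the KO E15.5 range of Hspa1b, at 8.69 CPM, and replicates 1 and 3, at 2.71 and 8.49 CPM of Hspa1a, lay below KO E15.5 replicate 4 (8.73). With KO E13.5 replicate 2 left out neither was called, at -1.49 for Hspa1b (adjusted p = 0.149) and -1.53 for Hspa1a (adjusted p = 0.276). Leaving out any 1 of the 4 KO E15.5 libraries also ended both calls (adjusted p 0.0597 to 0.117), with values that stayed between -4.0 and -3.26. Both calls also ended when the 2 KO E15.5 libraries of title number 1052 were summed (adjusted p = 0.0759 for Hspa1b and 0.114 for Hspa1a) and in a fit of these 2 groups alone (0.109 and 0.138). Hspa1a was also lost without WT E13.5 replicate 1, 2 or 3 or WT E15.5 replicate 1, 2 or 4 (adjusted p 0.052 to 0.0589). With the 2 genes summed before the fit the value was -3.58 (adjusted p = 0.0359). The 8 immediate early genes were all negative in KO, with a median of -0.64. EdgeR called none, and none had an unadjusted p under 0.05, where 33.5% of genes tested did. Without KO E13.5 replicate 4 the median of the 8 was -0.01, with 4 positive. Without KO E13.5 replicate 1 it was -0.99, with 0 positive and 0 called by edgeR. That fit called 21.3% of genes tested. In it 5 of the 10 genes had an unadjusted p under 0.05, and the share of genes tested at that p was not computed. DESeq2 also called none of the 8, and limma-voom called Atf3 (adjusted p = 0.0428), whose edgeR value was -1.15 ± 0.71 (adjusted p = 0.272). WT and KO each had 0 of 10 genes whose ages did not overlap, where 25.6% and 18.7% of genes tested did not.

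Other genes of the same pathways were taken from lists chosen for their function. The SDs of list genes are given only with KO E13.5 replicate 1 included. Of 47 other immediate early genes tested, 28 exceeded the within-group SD of 0.60, the 95th percentile of genes with at least 10 CPM, and 8 the 95th percentile of all genes tested. They were led by Klf2 (1.35), an endothelial and lymphocyte factor, and Egr4 (1.19). The narrowest was Per1 (0.24), a clock gene, followed by Sik1 (0.35). In WT E13.5 39 of the 47 were highest in replicate 4, and in WT E15.5 40 were highest in replicate 3. Klf2 stood at 138, 115 and 124 CPM in the libraries with title numbers 927, 928 and 941 and at 9.03 to 53.3 in the other 13. None of the 47 was called by edgeR in KO against WT at either age, and 2 had an unadjusted p under 0.05 at each age, where 14.8% and 4.99% of genes tested did at E13.5 and E15.5. At E13.5 there were 12, all higher in KO, without KO E13.5 replicate 1, a fit for which the share of genes tested was not computed.

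Of 14 other AP-1, Maf and ATF genes, 3 exceeded an SD of 0.60 and none the 95th percentile of all genes tested, with Maff (0.84) and Jund (0.81) widest and Atf7 (0.06) and Atf2 (0.17) narrowest. Jund, the AP-1 subunit usually taken as constitutive, was at 20.9, 25.8 and 19.4 CPM in the libraries with title numbers 927, 928 and 941 and at 3.45 to 11.4 elsewhere. None of the 23 kinases, cofactors and factors that regulate the serum and heat shock responses exceeded either. Among these Elk3 (0.47) and Hsf2 (0.47) were widest and Bag1 (0.11) and Mapk8 (0.12) narrowest. Both widest values rest on KO E13.5 replicate 1. Hsf2 was at 206 CPM there and at 51.2 to 64.9 elsewhere. Elk3 was at 26.3 CPM there and at 74.6 to 97.2 in the other E13.5 libraries. None of either list was called by edgeR in KO against WT. At E13.5, 1 and 5 genes had an unadjusted p under 0.05, where 14.8% of genes tested did. At E15.5 it was 0 and 1, where 4.99% of genes tested did. Without KO E13.5 replicate 1 the counts at E13.5 were 3 and 4, and the share of genes tested was not computed for that fit.

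Of 35 other heat shock genes and chaperones, 7 exceeded an SD of 0.60 and none the 95th percentile of all genes tested, with Hspb1 (0.87) and Hspa8 (0.80) widest and Ahsa2 (0.14) and Hsp90b1 (0.15) narrowest. Dnajb1, the HSP40 partner of HSP70, was at 238 CPM in KO E13.5 replicate 2 and 198 in WT E13.5 replicate 4, against 57.6 to 157 in the other E13.5 libraries. KO E13.5 replicate 1, which was lowest of its group in all 10 genes described here, was highest of the 16 for Hsph1 (601 CPM), Hsp90aa1 (1593) and Hspa4l (175), beside its germ cell markers. None of the 35 was called by edgeR in KO against WT at either age. At E13.5, 11 had an unadjusted p under 0.05, all higher in KO, where 10.6% of genes tested were higher at that p, and the median of the 35 was 0.32 beside 0.02 over all genes tested. With KO E13.5 replicate 1 left out there were 9, all higher, and the median was 0.17. The share of genes tested at that p was not computed for that fit. At E15.5, with 16 libraries, none of the 35 had an unadjusted p under 0.05, and the median was -0.06.

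Several of these list genes were called between ages, in comparisons where edgeR called 15.4% of genes tested in KO and 6.79% in WT. With 16 libraries, the calls among other immediate early genes, 6 of 47 in KO and 3 of 47 in WT, were not above those shares. The 2 of 14 other AP-1, Maf and ATF genes called in KO were not above the KO share either. In KO, 15 heat shock genes were lower at E15.5 (Hsp90ab1, Bag3, Hspe1, Hsph1, Ahsa1, Hsp90aa1, Hspa2, Hmox1, Ubb, Dnaja1, Fkbp4, Hsp90b1, Stip1, Hspa4 and Hspa9), with log2 fold changes from -1.89 for Hsph1 to -0.44 for Hsp90b1, and Cryab was higher (1.46). There were 17 lower when KO E13.5 replicate 1 was left out, these 15 among them, and 16 when replicate 2 was. Values without replicate 1 ran from -1.51 for Hsph1 to -0.35 for Hspa9, and those of Hsp90aa1, Stip1, Ahsa1, Fkbp4, Hspa4 and Hspa9 moved by over 1.5 times, from -1.65, -1.46, -1.14, -1.01, -1.0 and -0.76 to -0.83, -0.47, -0.64, -0.47, -0.37 and -0.35. Without replicate 1 the median of the 35 went from -0.71 to -0.52. In WT, Hsp90ab1 (-0.42) was among the lower genes and Cryab was higher (1.04). Without KO E13.5 replicate 1, 10 of the 35 were lower and 2 higher in WT, where that fit called 22.8% of genes tested. Among immediate early genes, Sgk1, Dusp4, Egr4, Cebpd, Dusp6 and Hes1 were lower in KO (-3.19 for Egr4 to -1.02 for Dusp6), and Dusp4, Id2 and Cebpd in WT (-1.68, -1.17 and -1.5). The KO count was 23 of 47 with KO E13.5 replicate 1 left out, these 6 among them (Egr4 at -2.24), in a fit that called 21.3% of genes tested. In WT, 7 of the 47 were lower without that library, where 22.8% of genes tested were called. Of the 14 other AP-1, Maf and ATF genes, Atf7 (0.32) and Maf (0.75) were higher in KO. Without KO E13.5 replicate 1, 2 of 15 were higher and 3 lower in KO, and 1 was higher and 1 lower in WT. Of the 23 regulators, Map2k2, Rps6ka1, Map2k1, Hspbp1 and Bag1 were lower (-0.88 for Hspbp1 to -0.32 for Bag1) and Elk4 higher (0.43) in KO. Rps6ka1 (-0.66) and Map2k2 (-0.44) were lower in WT. Without KO E13.5 replicate 1, 8 regulators were lower and 1 higher in KO, and 5 were lower and 3 higher in WT. With 16 libraries, the edgeR adjusted p of the genes named here as called lay between 0.000758 and 0.0471.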

How the data were processed

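RNA of 16 libraries was made into libraries with a Nugen Trio kit and read on a HiSeq3000, per the labels' protocols. The authors deposited raw counts of reads per gene, counted without strand as the file name states. The submitters' processing notes list STAR 2.5.2b, featureCounts, Subread 1.5.2, Picard 2.9.0, FastQC 0.11.5, MultiQC 1.0 and the GRCm38 build, without their order. How reads matching 2 genes were treated is not given in the sources used here. Counts were fitted with edgeR 4.0.16 in R 4.3.3 (quasi-likelihood test). All 16 libraries entered as 4 groups, filterByExpr left 20076 genes, scaling was TMM, and p-values were adjusted by Benjamini-Hochberg over these genes at 0.05. The scripts were tested on simulated data. SE is the log2 fold change over the square root of F. CPM uses TMM-scaled totals, and log2 CPM adds a prior count of 2. Gene coordinates and exon lengths are from GENCODE vM21, a release the authors may not have used. Replicate numbers follow accession order. Alternatives were 2 other normalizations, 2 other filters, DESeq2 1.42.0, limma-voom 3.58.1 with quality weights, 2-group fits, libraries left out, the KO E15.5 libraries of title number 1052 summed, and Hspa1a summed with Hspa1b. List genes are named where edgeR called them in any comparison or where their spread was among the 2 widest or narrowest of the list, and 1 item is not reported here. Genes of like pattern are the 8 or 5 of highest r, leaving out Gm, Rik and -ps symbols. Dnajb1 and Hspa4l were named after their values were seen. Members and lists were chosen with earlier results of these data known.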

Additional observations from a re-analysis of the deposited data

Results flagged for a closer look

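Each gene was checked in each group for a library far from the other 3, by Dixon's ratio (the gap to the nearest library over the range of the 4, in log2 CPM) against its 95% critical value. Of 40 such groups 3 passed, and chance flags about 1 in 20. Klf6 in WT E15.5 replicate 3 gave 0.9608, at 551 CPM against 191 in the next library. Egr1 in KO E15.5 replicate 2 gave 0.8736 on the low side, at 724 CPM against 905, in a group where the highest library was 1.29-fold above the lowest. Hspa1b in WT E13.5 replicate 4 gave 0.8295, just past the critical value, at 45.1 CPM against 10.4.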

How the results depend on the processing

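No paired analysis was possible because replicate numbers follow accession order and no groups compared share more than 1 title number (855, in WT and KO at E15.5), so a fit with title number as a block would rest on that pair of libraries. No KO against WT value of the 10 genes was called under any setting tried. For members called between ages in KO, 2 became 1 with upper quartile normalization, 0 in the fit of only those 2 groups, 0 with the 1052 libraries summed and 1 with Hspa1a and Hspa1b summed (which leaves 1 gene of them to test). Leaving out libraries gave 0 to 3. Uncalled log2 values changed sign under limma-voom at E13.5 (Fos 0.64, Fosb 0.51, Egr1 0.45) and at E15.5 (Atf3 0.31, Ier2 0.10). Between ages in WT, 9 of the 10 were positive with edgeR and 7 under limma-voom, where Hspa1b was at -0.14. Ier2 at E13.5 was -0.0012 with upper quartile normalization. With libraries left out, KO against WT at E13.5 ran from -0.62 to 0.75 for Fos, -1.41 to 0.76 for Fosb, -0.34 to 1.12 for Jun, -0.57 to 0.64 for Junb, -0.30 to 0.43 for Egr1, -0.21 to 0.45 for Ier2 and -0.39 to 0.76 for Klf6, with a median of the 10 from -0.24 to 0.76. At E15.5 it ran from -0.19 to 0.42 for Junb, -0.72 to 0.51 for Atf3 and -0.25 to 0.094 for Ier2. Between ages in WT, Hspa1a ran from -0.80 to 1.80, Hspa1b from -0.75 to 1.12 and the median of the 10 from -0.71 to 1.03. Beyond the libraries left out, the cause of these changes was not tested. The lowest count of any of the 10 genes in a library was 51, and the effect of depth on these comparisons was not tested.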

Other observations

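The title number 855, borne by replicate 2 of WT and replicate 3 of KO at E15.5, is one the labels do not explain. Fos was at 324 CPM in both and Jun at 237 and 239. Over the 10 genes the log2 ratio of the KO to the WT library ran from -0.43 for Fosb to 0.60 for Junb.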
